A study of Mus musculus with 8 samples.

Results

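The comparison set granulocyte-monocyte progenitors (GMP) against common myeloid progenitors (CMP) in mice with short telomeres, and asked which differences between these stages of myeloid commitment were kept and which were blurred there. It used the 4 arrays of sorted cells from G4/G5 mice out of the 8 arrays of the series, 2 of each cell type. A gene was included when it reached a signal of 50 on 2 or more of these 4 arrays, and its probe set of highest mean signal stood for it. Of the 18193 genes with an unambiguous probe set, 8549 were included. Genes bright in G0 cells alone were therefore not tested.

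Both genotypes carry TERTER, an allele of telomerase reverse transcriptase fused to the estrogen receptor, whose product lacks activity without the receptor's ligand. The G4/G5 TERTER/ER mice are homozygous, come from mixed late generations and are labelled as having short telomeres. The G0 TERTER/+ mice, labelled normal, carry 1 copy of the same allele beside 1 wild-type copy. All were male and of a mainly C576BL/6 background, as the labels spell it, matched for age, with no age stated. Each array came from a pool of 4 mice that gave 5000 to 20000 sorted bone marrow cells, and 5 to 10 ng of RNA was amplified for hybridisation. Each group held 2 pools, so every p-value measures the spread between pools. Whether same-numbered CMP and GMP pools came from the same animals is not stated.

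CMP give rise to the red cell, platelet, granulocyte and monocyte lineages, and GMP are their descendants restricted to granulocytes and monocytes. On that step the erythroid and megakaryocytic programme driven by GATA1, with its partners FOG1, TAL1 and GFI1B, is shut down, while PU.1, C/EBP factors and GFI1 direct the genes of the granules that arm neutrophils. Granule proteins are made in bulk in the endoplasmic reticulum (ER), whose chaperones and translocation machinery expand with the secretory load. In bulk RNA from sorted cells, fewer cells of a type and less RNA per cell cannot be told apart.

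The promoters of several genes the results turn on are shown first, because the factors named above recognise short motifs in them. Each line gives the 250 bases before the transcription start from RefSeq (build GRCm38.p6), 5′ to 3′ in the direction of the gene, with motif matches in capitals. These genes are shown because their windows hold a match. In Elane (chr10:79886062-79886311, plus strand) and Prtn3 (chr10:79879417-79879666, plus strand), neutrophil serine proteases, the capitals mark GAGGAAG, a core bound by PU.1 and other ETS factors. In Klf1 (chr8:84901732-84901981, plus strand), the erythroid Krüppel-like factor, and Gp5 (chr16:30310782-30311031, minus strand), a platelet glycoprotein, they mark AGATAA or TGATAA, the GATA motif, both on the strand opposite to the gene.
Elane: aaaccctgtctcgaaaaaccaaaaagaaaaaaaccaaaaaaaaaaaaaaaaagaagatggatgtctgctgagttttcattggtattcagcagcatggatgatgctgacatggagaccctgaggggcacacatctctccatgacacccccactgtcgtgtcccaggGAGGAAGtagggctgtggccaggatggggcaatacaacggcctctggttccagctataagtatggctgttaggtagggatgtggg
Prtn3: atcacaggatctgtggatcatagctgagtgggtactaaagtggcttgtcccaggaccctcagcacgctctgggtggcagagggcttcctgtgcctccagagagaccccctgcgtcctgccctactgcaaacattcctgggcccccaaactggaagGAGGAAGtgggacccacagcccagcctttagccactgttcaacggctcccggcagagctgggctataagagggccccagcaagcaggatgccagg
Klf1: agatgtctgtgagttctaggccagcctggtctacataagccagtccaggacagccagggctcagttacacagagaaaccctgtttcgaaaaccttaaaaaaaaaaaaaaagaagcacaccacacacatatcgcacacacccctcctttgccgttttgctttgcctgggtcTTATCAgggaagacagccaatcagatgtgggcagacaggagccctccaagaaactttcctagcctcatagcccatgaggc
Gp5: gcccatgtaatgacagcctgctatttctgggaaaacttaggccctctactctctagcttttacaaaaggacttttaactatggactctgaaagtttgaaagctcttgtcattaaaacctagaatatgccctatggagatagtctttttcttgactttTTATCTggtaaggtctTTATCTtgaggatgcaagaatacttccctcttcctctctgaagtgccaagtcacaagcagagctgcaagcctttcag
The match began 85 bases before the start in Elane, 95 in Prtn3, 80 in Klf1, and 93 and 77 in Gp5. In Pdia6 (chr12:17266339-17266588, plus strand), Dnajc3 (chr14:118937682-118937931, plus strand) and Hsp90b1 (chr10:86705445-86705694, minus strand), which encode ER folding proteins, the capitals mark CCAAT and CCACG with 9 bases between them, the ER stress response element bound by ATF6 and NF-Y.
Pdia6: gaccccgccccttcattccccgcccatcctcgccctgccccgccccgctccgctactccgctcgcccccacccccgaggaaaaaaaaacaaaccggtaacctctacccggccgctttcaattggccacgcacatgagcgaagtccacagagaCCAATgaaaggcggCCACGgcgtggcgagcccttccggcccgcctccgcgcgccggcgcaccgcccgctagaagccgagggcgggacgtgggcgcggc
Dnajc3: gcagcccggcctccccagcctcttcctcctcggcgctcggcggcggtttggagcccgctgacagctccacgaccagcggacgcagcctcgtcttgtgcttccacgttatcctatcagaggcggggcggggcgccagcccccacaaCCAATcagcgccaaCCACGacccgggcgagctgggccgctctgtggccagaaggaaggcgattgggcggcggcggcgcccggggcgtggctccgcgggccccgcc
Hsp90b1: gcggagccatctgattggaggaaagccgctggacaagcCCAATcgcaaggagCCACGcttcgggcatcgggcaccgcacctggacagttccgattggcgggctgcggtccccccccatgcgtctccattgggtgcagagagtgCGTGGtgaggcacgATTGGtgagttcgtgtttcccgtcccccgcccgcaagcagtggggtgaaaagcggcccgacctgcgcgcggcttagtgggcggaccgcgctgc
Hsp90b1 held 2 matches, 212 and 107 bases before the start, and Pdia6 and Dnajc3 held 1 each, at 98 and 105. Searched on both strands of the 32851 windows of this length, GAGGAAG stood in 10.61%, the GATA motif in 16.6% and the ER stress element in 0.11%. A window was found for 7065 of the genes tested, and the 3 motifs stood in 13.06%, 10.88% and 0.16% of them. Among genes higher in G4/G5 GMP the shares were 13.54%, 10.77% and 1.23% (4 of 325 for the last: Hsp90b1, Canx, Pdia6 and Dnajc3). Among genes lower there they were 16.52%, 14.96% and 0.0% of 448. These are matches of letters and were not tested.

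The cells were checked against genes of the usual surface gate for these progenitors, since the sources used here do not give the sorting markers. Throughout, pairs of signals are given in the order pool 1, pool 2, and differences are GMP minus CMP on the log2(signal + 10) scale with their standard error. Fcgr2b, an Fc receptor by which GMP are gated, read 807 and 503 in the CMP pools and 1399 and 1577 in the GMP pools, a difference of 1.21 ± 0.27 (adjusted p = 0.0288). Fcgr3, its partner in the gate, read 617 and 72.2 in the CMP pools and 1194 and 1457 in the GMP pools, a difference of 2.55 ± 0.78 (adjusted p = 0.0693), and rose by 4.02 without CMP pool 1 (adjusted p = 0.000987). Both were lower on each CMP array than on each GMP array. With 2 pools against 2, such separation can arise by chance, and its share over all genes is not given here or below. Kit, the stem cell factor receptor, read 1332 and 1749.7 in the CMP pools and 809.7 and 818 in the GMP pools, and Cd34 read 1524 and 2459 in the CMP pools and 880.2 and 1071 in the GMP pools, so both markers of the progenitor gate were bright in all 4 samples. Il7r, which the gate removes, reached at most 101.5 on any of the 8 arrays. The 2 probe sets of Tert reached at most 14.91 and 9.988, below the filter, and since the allele is a fusion, Tert signal checked nothing.

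The CMP pools of each genotype differed more than the GMP pools. In G4/G5 CMP pool 1, 245 genes read more than 1 log2 unit higher than in pool 2 and 119 read that much lower. Between the G0 CMP pools the counts were 62 and 191, between the G4/G5 GMP pools 5 and 9, and between the G0 GMP pools 4 and 34. Genes of maturing neutrophils set G4/G5 CMP pool 1 apart from the other CMP pools. The summed signal of the 26 members tested was 77641.6 in it, 4980.7 in G4/G5 CMP pool 2, and 3566.5 and 5079.4 in the G0 CMP pools. In GMP the sum was 47099.1 and 50126.3 in G4/G5 and 9553.0 and 12188.4 in G0. Both G4/G5 GMP pools thus also read above both G0 GMP pools. Monocyte, macrophage and dendritic genes summed to 12115.3 and 7874.5 in the CMP pools, and eosinophil, basophil and mast cell genes to 10389.3 and 4574.2. B lymphoid genes summed to between 665 and 1081 on all 8 arrays and T and NK genes to between 444 and 1278. The part of these cells in the results was not tested, and counts without CMP pool 1 are given beside the lists.

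In G4/G5 mice, 382 genes were higher and 555 lower in GMP than in CMP (limma, adjusted p under 0.05), 937 of 8549 or 11.0%, of which 4.47% higher and 6.49% lower. Unadjusted, 2548 genes had a p under 0.05. The same comparison in the G0 mice, which shares no array with it, called 938 genes higher (11.0%) and 860 lower (10.1%), 21.0% in all. The median standard error of a difference was 0.189. All 4 groups shared 1 estimate of the spread. The median gap between pools was 0.26 in G4/G5 CMP, 0.25 in G0 CMP, 0.12 in G4/G5 GMP and 0.14 in G0 GMP. G4/G5 calls also fell without either G0 GMP pool, which is not in that comparison, and rose without either G0 CMP pool. How much of the changes below comes from the shared estimate was not tested. Calls depended on having both GMP pools: without GMP pool 1, 9 genes were higher and 56 lower, and without GMP pool 2, 17 and 89. Leaving out CMP pool 1 raised the counts to 647 and 741, and leaving out CMP pool 2 cut them to 256 and 336. In G0, leaving out GMP pool 1 left 27 genes higher and 41 lower, and leaving out GMP pool 2, 191 and 246. Passing with all arrays and without each of the 4 in turn were 62 genes, 8 higher and 54 lower.

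**Figure D1:**
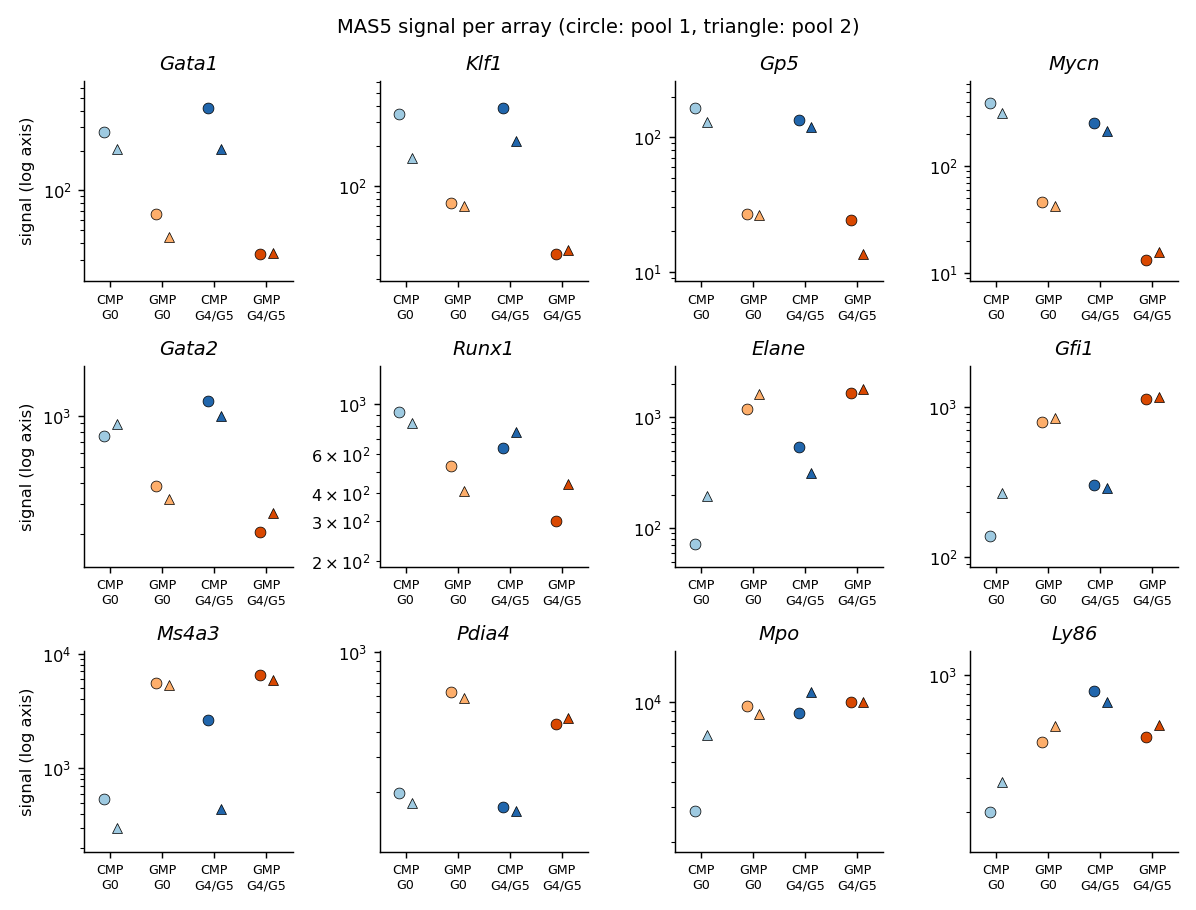
Signals of 12 genes on the 8 arrays (log axis), by cell type and genotype, with circles for pool 1 and triangles for pool 2. The erythroid and megakaryocytic genes Gata1, Klf1 and Gp5 lie lower in GMP than in CMP in both genotypes, Elane, Gfi1 and Pdia4 lie higher, Mpo is at about the same height in G4/G5 CMP and GMP, and Ly86 is higher in CMP than in GMP in G4/G5 and lower in G0.

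The erythroid transcription factors were lower in GMP than in CMP in G4/G5 mice, with fitted differences at least as large as in G0. Gata1, the master regulator of red cell and megakaryocyte genes, read 419.8 and 206 in the CMP pools and 32.8 and 33.4 in the GMP pools, a difference of -2.82 ± 0.33 (adjusted p = 0.0028), against -1.95 in G0. Klf1, which activates the adult globin genes and whose GATA motif is shown above, read 384 and 217 in the CMP pools and 30.5 and 33.0 in the GMP pools, a difference of -2.84 ± 0.36 (adjusted p = 0.00398). In G0 the difference of Klf1 was -1.59, and the genotypes differed in it by -1.25 ± 0.50 (interaction, unadjusted p = 0.0366). In GMP both Gata1 and Klf1 were below the signal filter on each G4/G5 array. Gfi1b, a repressor required for red cell and platelet formation, read 299 and 207 in the CMP pools and 36.6 and 38.4 in the GMP pools (-2.44 ± 0.23, G0 -1.88). Zfpm1, which encodes the GATA1 cofactor FOG1, read 201 and 210.1 in the CMP pools and 38.8 and 32.0 in the GMP pools (-2.25 ± 0.17, G0 -2.14). Tal1, a partner of GATA1 in its DNA-bound complex, read 723 and 753 in the CMP pools and 248 and 303 in the GMP pools (-1.40 ± 0.14, G0 -1.19). On each of these 5 genes both GMP pools lay below both CMP pools in each genotype, and Gata1, Gfi1b, Zfpm1 and Tal1 passed without each G4/G5 array in turn. Where signals are low, adding 10 makes a difference smaller than the log ratio of the signals themselves.

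The erythroid list as a whole, which includes the transcription factors above, went the same way. Of 44 listed erythroid genes, 22 were tested, and 16 of them were lower and 1 higher in G4/G5 GMP. Of all genes, 6.49% were lower there and 10.1% in G0 GMP. The G4/G5 median of the list was -1.90 where all genes had -0.03. In G0, 12 were lower and 1 higher, with a median of -1.07, and 4 were lower without G0 GMP pool 1. With a pseudocount of 50 the G4/G5 median was -1.23. Car2, a carbonic anhydrase of red cells, read 2611 and 2209 in the CMP pools and 434 and 419 in the GMP pools (-2.47 ± 0.14, G0 -1.95). Aqp1, a water channel, read 402 and 177 in the CMP pools and 25.6 and 27.3 in the GMP pools (-2.93 ± 0.59). Mfsd2b, the sphingosine-1-phosphate exporter of red cells and platelets, is on none of the lists and was named for the size of its fall. It read 679 and 304 in the CMP pools and 23.1 and 16.5 in the GMP pools, with a difference of -3.98 ± 0.37 (adjusted p = 0.00127, G0 -2.63). Since its GMP signals were below the filter, that size depends on the pseudocount, and it was -4.47 with 1 and -2.87 with 50. The erythroid member that was higher was Tfrc, the transferrin receptor that dividing cells of many kinds use to take up iron, which read 778 and 536 in the CMP pools and 1115 and 1263 in the GMP pools (0.87 ± 0.18). With CMP pool 1, CMP pool 2, GMP pool 1 or GMP pool 2 left out, 15, 16, 6 or 8 members were lower and the median lay between -2.09 and -1.58. The summed erythroid signal was 15056.9 in G4/G5 CMP pool 1 and 11692.8 in pool 2, with 7810.4 and 7861.1 in GMP.

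Platelet and megakaryocyte genes fell together as well, where 6.49% of all genes were lower in G4/G5 GMP and 10.1% in G0 GMP. Of 33 listed, 18 were tested and 12 were lower in G4/G5 GMP, none higher, with a median of -2.01 (-1.18 with a pseudocount of 50). In G0, 9 were lower and the median was -1.71, and 6 were lower without G0 GMP pool 1. Gp5, a subunit of the platelet receptor for von Willebrand factor, read 134 and 119 in the CMP pools and 24.3 and 13.5 in the GMP pools (-2.26 ± 0.25, G0 -2.08). F2r, the thrombin receptor PAR1, read 2755 and 1674 in the CMP pools and 177 and 190.2 in the GMP pools (-3.48 ± 0.38, G0 -3.11). Pf4, the platelet chemokine, read 1682 and 323 in the CMP pools and 128 and 114 in the GMP pools (-2.52 ± 0.59, adjusted p = 0.0337), with CMP pool 1 far above pool 2, and -1.35 without CMP pool 1. Slc14a1, the Kidd blood group urea transporter, read 650.2 and 374 in the CMP pools and 28.0 and 42.1 in the GMP pools (-3.50 ± 0.31). Mmrn1, a platelet storage protein, read 70.0 and 66.1 in the CMP pools and 9.25 and 2.45 in the GMP pools (-2.33 ± 0.28), and Rab27b, a GTPase of granule release, read 94.8 and 89.6 in the CMP pools and 9.90 and 14.5 in the GMP pools (-2.21 ± 0.25). For all 6 the GMP arrays lay below the CMP arrays. Fli1, a driver of megakaryocyte genes that is also expressed in other blood cells, read 692 and 612 in the CMP pools and 639.5 and 635 in the GMP pools, a difference of -0.03 ± 0.17 (adjusted p = 0.924), and the CMP and GMP arrays overlapped. The members lower numbered 11, 14, 7 and 8 without CMP pool 1, CMP pool 2, GMP pool 1 and GMP pool 2 in turn. In the first of these fits the median was -1.45 and 1 member, Clu, was higher.

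Stem cell and multipotent progenitor genes were lower in GMP in both genotypes, with medians close to each other. The shares of all genes that were lower were 6.49% in G4/G5 GMP and 10.1% in G0 GMP. Of 45 listed, 36 were tested, and 22 were lower in G4/G5 GMP and none higher (median -1.06), against 23 lower in G0 (median -0.93), or 4 without G0 GMP pool 1. Mycn, a MYC family factor of stem cells, read 253 and 213 in the CMP pools and 13.3 and 15.8 in the GMP pools (-3.31 ± 0.19, adjusted p = 0.0002, G0 -2.75). Meis1, a homeobox cofactor that sustains stem cells, read 473 and 453 in the CMP pools and 104 and 138 in the GMP pools (-1.86 ± 0.16, G0 -2.11). Angpt1, a ligand of the TIE2 receptor, read 1057 and 1357 in the CMP pools and 177 and 175 in the GMP pools (-2.70 ± 0.17, G0 -2.58), and Sox4, a factor of early progenitors, read 3796 and 5013 in the CMP pools and 1674 and 1987 in the GMP pools (-1.25 ± 0.22, G0 -1.17). In these 4 genes each GMP pool read below each CMP pool in both genotypes. Gata2, which maintains stem cells and also marks mast cells and basophils, read 763 and 894 in G0 CMP, 387 and 324 in G0 GMP, 1223 and 993 in G4/G5 CMP and 206 and 266 in G4/G5 GMP. Its difference was -2.19 ± 0.18 in G4/G5 and -1.20 in G0, and the interaction was -0.99 ± 0.26 (unadjusted p = 0.00422). Hoxa9, whose protein keeps progenitors undifferentiated, went the other way at 0.38 ± 0.14 without passing (adjusted p = 0.115), and 1 other probe set of it had the opposite sign. Leaving out CMP pool 1, CMP pool 2, GMP pool 1 and GMP pool 2 in turn gave 24, 17, 6 and 8 lower members.

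Genes of the primary granules and other genes that mark GMP were higher in GMP in both genotypes, with smaller differences in G4/G5. The shares of all genes that were higher were 4.47% in G4/G5 GMP and 11.0% in G0 GMP. Of 27 listed, 24 were tested, and 8 were higher in G4/G5 GMP and none lower, with a median of 0.75; in G0, 17 were higher with a median of 1.55, and 4 without G0 GMP pool 1. The difference was lower in G4/G5 than in G0 for 24 of 24, with a median interaction of -0.75, where all genes had -0.04. Of them, 7 had an unadjusted interaction p under 0.05 by limma and 0 after adjustment over all genes. Unadjusted, 3.94% of all genes had one. The members share the same pools, so they are not independent, and the list was written with earlier results of these data known. The share of all genes with a lower difference in G4/G5 is not given. Some other lists leaned the same way, with 53 of 59 oxidative phosphorylation and 17 of 18 monocyte, macrophage and dendritic genes below 0. Others did not, such as DNA replication with 18 of 44. Elane, neutrophil elastase, read 72.3 and 194 in G0 CMP, 1182 and 1601 in G0 GMP, 535 and 315 in G4/G5 CMP and 1662 and 1797 in G4/G5 GMP. Its rise from CMP to GMP was 2.05 ± 0.40 (adjusted p = 0.0193) in G4/G5 and 3.42 in G0 (interaction -1.37 ± 0.56, unadjusted p = 0.0394). Both G4/G5 CMP pools read above both G0 CMP pools, and the same held for GMP by a smaller step.

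Several of the best known granule genes did not pass in G4/G5. Mpo, myeloperoxidase, the marker enzyme of primary granules, read 2852 and 6814 in G0 CMP, 9505 and 8679.7 in G0 GMP, 8825 and 11199 in G4/G5 CMP and 10015 and 10013 in G4/G5 GMP. CMP and GMP overlapped in G4/G5 (0.01 ± 0.33, adjusted p = 0.988), and in G0 the difference was 1.04 (adjusted p = 0.056). Prtn3, proteinase 3, read 1260.3 and 2297 in G0 CMP, 6115 and 5806 in G0 GMP, 5791 and 3765 in G4/G5 CMP and 6534 and 6875 in G4/G5 GMP (0.52 ± 0.28, G0 1.80, interaction -1.28 ± 0.39, unadjusted p = 0.0104). Ctsg, cathepsin G, read 1517 and 3268 in G0 CMP, 8221 and 8051 in G0 GMP, 6158 and 4855 in G4/G5 CMP and 9562 and 9305 in G4/G5 GMP (0.79 ± 0.30, G0 1.86, interaction -1.08 ± 0.42, unadjusted p = 0.0313). For Prtn3 and Ctsg each G4/G5 CMP pool read above each G0 CMP pool, and the GMP pools of G4/G5 read higher than those of G0. Members that passed included Ms4a3, a membrane protein specific to granulocyte-monocyte progenitors, which read 2623 and 445 in the CMP pools and 6555 and 5943 in the GMP pools (2.51 ± 0.66, G0 3.72, 3.78 without CMP pool 1). Cst7, an inhibitor of cathepsins, read 994 and 712 in the CMP pools and 1717 and 1684 in the GMP pools (1.01 ± 0.16, G0 1.63). Anxa3, a calcium-dependent phospholipid-binding protein of neutrophils, read 722 and 444 in the CMP pools and 1826 and 1873 in the GMP pools (1.69 ± 0.29, G0 2.77). Alas1, the first enzyme of heme synthesis outside red cells, read 678 and 415 in the CMP pools and 2167 and 2130.2 in the GMP pools (2.00 ± 0.28, G0 2.54). Gstm1, Tmed3 and Nkg7 were the others. The count of higher members was 13 without CMP pool 1 (median 0.97), 4 without CMP pool 2 (median 0.39) and 0 without GMP pool 1 or GMP pool 2.

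The 12 largest rises were mostly of genes outside the lists. Ncmap, a membrane protein known from myelin, read 37.3 and 2.72 in the CMP pools and 208 and 194 in the GMP pools (3.11 ± 0.59). Its CMP signals were below the filter, and the difference was 4.08 with a pseudocount of 1 and 1.89 with 50. Afap1, an actin filament adaptor, read 67.9 and 39.0 in the CMP pools and 439.9 and 405 in the GMP pools (2.81 ± 0.22, G0 2.67), and the CMP arrays lay far below the GMP arrays in each genotype. B4galt6, the lactosylceramide synthase, read 261 and 119 in the CMP pools and 1053 and 1198 in the GMP pools (2.60 ± 0.30, G0 2.95). Papss2, which makes the sulfate donor PAPS, read 97.7 and 33.0 in the CMP pools and 294 and 335 in the GMP pools (2.25 ± 0.38). Chst13, a chondroitin sulfotransferase, read 116 and 22.0 in the CMP pools and 375 and 261 in the GMP pools (2.35 ± 0.53). Mgam, Dmkn, Rgcc, Prkcb, Ptgr1, Cldn15 and Ms4a3 completed them, with differences from 2.19 (Cldn15) to 2.80 (Mgam). The 8 genes that stayed higher without each array in turn, singled out for that, were Afap1, B4galt6, Pdia4, Agps, Ak4, Arsb, Dio2 and Lgalsl. Arsb, a lysosomal arylsulfatase that degrades sulfated glycosaminoglycans, read 389 and 234 in the CMP pools and 1376 and 1273 in the GMP pools (2.10 ± 0.24, G0 1.83). Dio2, the deiodinase that activates thyroid hormone, read 99.7 and 97.1 in the CMP pools and 436 and 459.6 in the GMP pools (2.08 ± 0.16, G0 1.93). Agps, an enzyme of ether lipid synthesis, read 297 and 365 in the CMP pools and 929 and 853 in the GMP pools (1.41 ± 0.14, G0 1.15).

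The transcription factors that direct granulocytes and monocytes were called in both directions. For all genes the shares higher and lower were 4.47% and 6.49% in G4/G5 GMP, and 11.0% and 10.1% in G0 GMP. Of 21 listed, 15 were tested, and 2 were higher and 2 lower in G4/G5 GMP, with a median of -0.08; in G0, 4 were higher and 3 lower, with a median of 0.32. Gfi1, a repressor required for neutrophils, read 301 and 289 in the CMP pools and 1139.8 and 1174 in the GMP pools, a difference of 1.94 ± 0.25 (adjusted p = 0.0041), against 2.03 in G0. Cebpb, the C/EBP factor of emergency granulopoiesis, read 366 and 198 in the CMP pools and 675 and 641 in the GMP pools (1.26 ± 0.25, G0 2.08). Mef2c, a factor of lymphoid and monocyte potential, read 551 and 633 in the CMP pools and 214 and 187 in the GMP pools (-1.52 ± 0.14, G0 -1.77), and Runx1, a regulator of stem and progenitor cells, read 638 and 754 in the CMP pools and 301 and 441 in the GMP pools (-0.91 ± 0.21, G0 -0.89). Cebpa, without which GMP do not form, read 69.8 and 182 in G0 CMP, 275 and 259 in G0 GMP, 153 and 308 in G4/G5 CMP and 248 and 249 in G4/G5 GMP. CMP and GMP overlapped for it in G4/G5 (0.18 ± 0.41), while in G0 both GMP pools lay above both CMP pools (1.16, adjusted p = 0.0765). Spi1, the gene of PU.1, read 101 and 183 in the CMP pools and 128 and 128 in the GMP pools (-0.09 ± 0.34), and Irf8, a monocyte factor, read 593 and 1005 in the CMP pools and 501 and 679 in the GMP pools (-0.40 ± 0.45), both with overlapping arrays. Cebpd, another C/EBP factor, had 0.61 ± 0.34 in G4/G5 and 2.01 in G0 (interaction -1.39 ± 0.48, unadjusted p = 0.0193). The factors called higher and lower numbered 5 and 3 without CMP pool 1 (median -0.30), 2 and 1 without CMP pool 2, 0 and 1 without GMP pool 1, and 1 and 1 without GMP pool 2.

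Receptors for the cytokines that act on these cells were called in both directions. Of 25 listed, 19 were tested, and 1 was higher and 3 lower in G4/G5 GMP, where 4.47% and 6.49% of all genes were. The median was -0.33 (G0 0.04), but -0.02 without GMP pool 1 and -0.01 with a signal filter of 100. The receptors of G-CSF, GM-CSF and M-CSF did not pass: Csf3r read 252 and 394 in the CMP pools and 353 and 405 in the GMP pools (0.25 ± 0.30), Csf2rb read 1289 and 751 in the CMP pools and 1114 and 1308 in the GMP pools (0.29 ± 0.27) and Csf1r read 903 and 1286 in the CMP pools and 955 and 1492 in the GMP pools (0.15 ± 0.43, with both other probe sets of opposite sign). Ifngr2, a chain of the interferon gamma receptor, was the higher member (1.17 ± 0.27). Il17ra (-0.88 ± 0.16), Tgfbr2 (-1.10 ± 0.28) and Acvr1b (-0.84 ± 0.21), receptors for interleukin 17, TGF-beta and activin, were lower. With CMP pool 1 left out, 2 receptors were higher and 2 lower, with CMP pool 2 left out, 0 and 1, and without GMP pool 1 or GMP pool 2, none passed.

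ER folding and secretory genes held more rises than any other list, where 4.47% of all genes were higher in G4/G5 GMP and 11.0% in G0 GMP. Of 45 listed, 43 were tested, and 22 were higher in G4/G5 GMP and none lower, with a median of 0.60; in G0, 36 were higher with a median of 0.82, and 5 without G0 GMP pool 1. Pdia4, a disulfide isomerase, read 168 and 161 in the CMP pools and 437 and 469.8 in the GMP pools (1.41 ± 0.14, adjusted p = 0.00132, G0 1.66). Sdf2l1, a chaperone partner induced by ER stress, read 432 and 282 in the CMP pools and 1211 and 1070.0 in the GMP pools (1.68 ± 0.21, G0 2.36). Both genes read more than 2-fold higher in each G4/G5 GMP pool than in each CMP pool. Pdia6, with the stress element shown above, read 828 and 994 in the CMP pools and 1762 and 1631 in the GMP pools (0.89 ± 0.13, G0 1.30), and Dnajc3, a cochaperone, read 544 and 435 in the CMP pools and 1075 and 1126 in the GMP pools (1.16 ± 0.14, G0 1.15). Hsp90b1, the ER form of HSP90, read 1471 and 1899.8 in the CMP pools and 2373 and 2846 in the GMP pools (0.63 ± 0.15, G0 0.67). In all 5 genes the GMP pools lay above the CMP pools, with a smaller gap between pools of one cell type than between cell types. Xbp1, the transcription factor of the unfolded protein response, read 1763 and 1618 in the CMP pools and 2641 and 3197 in the GMP pools (0.78 ± 0.13, G0 1.06), and the translocation and glycosylation subunits Sec61a1 (0.75 ± 0.13), Rpn1 (0.72 ± 0.12) and Ddost (0.83 ± 0.15) also rose.

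Other members of that list did not pass in G4/G5 or rose less there than in G0. Hspa5, the chaperone BiP, read 3193 and 3967 in the CMP pools and 5256 and 5516 in the GMP pools (0.60 ± 0.17, adjusted p = 0.0547), and passed in G0 (0.98). Calr, calreticulin, read 4632 and 5093 in the CMP pools and 5215 and 5358 in the GMP pools (0.12 ± 0.16), its GMP pools barely above its CMP pools. Manf, a secreted ER stress protein, read 1009.9 and 880.2 in G0 CMP, 3333 and 2820.2 in G0 GMP, 1209 and 1196 in G4/G5 CMP and 2349.7 and 2429 in G4/G5 GMP (0.98 ± 0.13, G0 1.69, interaction -0.71 ± 0.18, unadjusted p = 0.00402), lower in G4/G5 GMP than in G0 GMP. Ddit3, the stress factor CHOP, did not pass (-0.63 ± 0.20). The difference was lower in G4/G5 than in G0 for 38 of the 43 genes, Ddit3 included. The median interaction was -0.33, where all genes had -0.04. The share of all genes with a lower difference is not given, and the list was written with earlier results known. The members higher numbered 21, 19, 1 and 3 without CMP pool 1, CMP pool 2, GMP pool 1 and GMP pool 2 in turn, and the median stayed between 0.58 and 0.62.

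**Figure D2:**
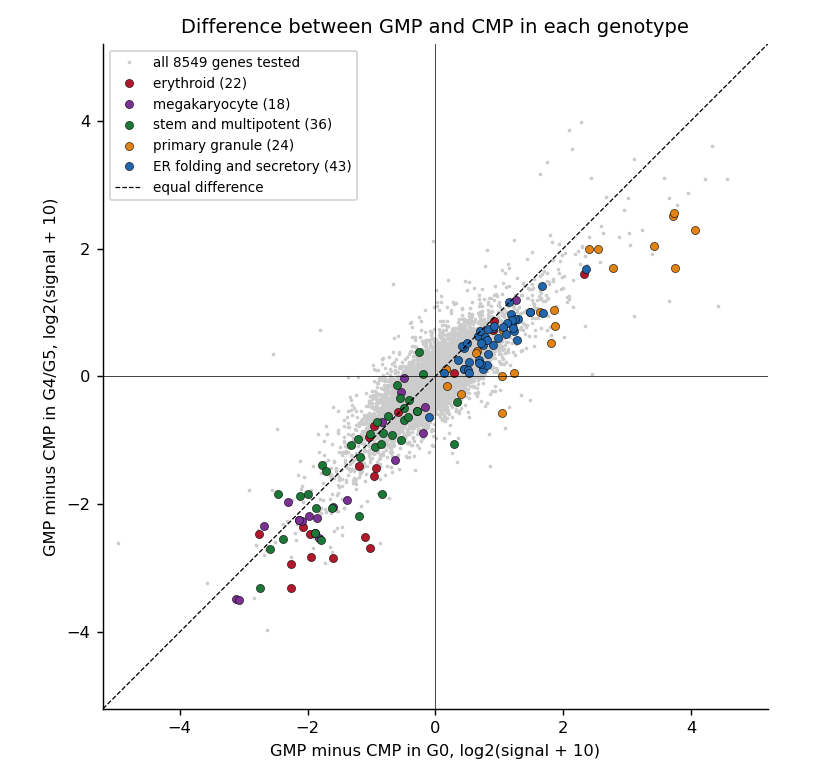
Difference between GMP and CMP in G4/G5 (vertical) against that in G0 (horizontal), both on the log2(signal + 10) scale, for the 8549 genes tested, with 5 gene lists in colour and their numbers tested in brackets. All 24 primary granule genes and 18 of the 22 erythroid genes lie below the dashed line of equal differences. Over all genes the median of the vertical minus the horizontal value is -0.04.

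Some genes of energy supply were higher in GMP, where 4.47% of all genes were in G4/G5 and 11.0% in G0. Of 59 oxidative phosphorylation genes tested (63 listed), 9 were higher in G4/G5 GMP (median 0.27) and 38 in G0 (median 0.48), or 0 in G0 without G0 GMP pool 1. Cyc1, a subunit of respiratory complex III, read 1162 and 1069 in the CMP pools and 2124 and 1790.2 in the GMP pools (0.80 ± 0.16, G0 0.94), and Cycs, cytochrome c, read 3059 and 3289.8 in the CMP pools and 4584 and 4819.7 in the GMP pools (0.57 ± 0.12, G0 0.71). Without CMP pool 1, 19 passed, without CMP pool 2, 2 (median 0.17), and without GMP pool 1 or GMP pool 2, 0. With no signal filter, or with only the 4 G4/G5 arrays fitted, 2 passed. Of 19 glycolysis genes tested (24 listed), 7 were higher and 2 lower (median 0.54, G0 0.56). Pgk1 read 1939 and 1893 in the CMP pools and 3353 and 3007 in the GMP pools (0.73 ± 0.12) and Pfkp read 217 and 227 in the CMP pools and 435 and 466 in the GMP pools (0.99 ± 0.14), enzymes of the pathway, rose. Slc2a3, a neuronal-type glucose transporter, read 954 and 644 in the CMP pools and 417 and 418 in the GMP pools and fell by 0.89 ± 0.20, against -1.84 in G0 (interaction 0.95 ± 0.28, unadjusted p = 0.00953). Hk1, a hexokinase, was the other lower gene (-0.78 ± 0.19). Slc16a1, a lactate transporter, rose (1.08 ± 0.23, G0 1.01). Of the glycolysis genes, 5 were higher and 1 lower without CMP pool 1, 4 and 1 without CMP pool 2, 4 and 0 with only the 4 arrays fitted, and without GMP pool 1 or GMP pool 2, none passed.

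The replication, mitosis and ribosome biogenesis genes that passed were higher in GMP, where 4.47% of all genes were. Of 44 DNA replication genes tested (47 listed), 5 were higher and none lower in G4/G5 GMP (median 0.37, G0 0.29 with 4 higher). They were Rrm2, a ribonucleotide reductase subunit, which read 920.4 and 932 in the CMP pools and 1826 and 1538 in the GMP pools (0.85 ± 0.18), Gmnn (0.80 ± 0.17), Cdc45 (0.74 ± 0.15), Rpa1 (0.69 ± 0.18) and Cdt1 (0.65 ± 0.17). Of 45 mitosis genes tested (46 listed), 1 was higher, Kif22, a chromosome-moving kinesin, which read 1259 and 1279.7 in G0 CMP, 1533 and 1366 in G0 GMP, 548 and 734 in G4/G5 CMP and 1061 and 1117 in G4/G5 GMP (0.77 ± 0.15, G0 0.19). In G0, 10 mitosis genes were higher, and both G4/G5 CMP pools read below all G0 pools for Kif22. Of 38 ribosome biogenesis genes tested (39 listed), 4 were higher (median 0.30, G0 0.35 with 11), Nolc1 (1.01 ± 0.19), Ebna1bp2 (0.74 ± 0.15), Nop16 (0.68 ± 0.17) and Pes1 (0.55 ± 0.14). Leaving out CMP pool 1 or CMP pool 2, 4 or 7 replication genes and 3 or 5 biogenesis genes were higher. Without CMP pool 1 the replication and biogenesis medians were 0.22 and 0.14, with only the 4 arrays fitted 2 replication genes passed, and without GMP pool 1 or GMP pool 2 no gene of these 3 lists passed.

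Messages of the ribosome itself went the other way in G4/G5, where 6.49% of all genes were lower in GMP. Of 72 cytosolic ribosomal protein genes listed, 40 were tested and 13 were lower in G4/G5 GMP, none higher, with a median of -0.50 under the deposited scaling but -0.09 with 1 lower under quantile normalization. The deposited scaling with no signal filter gave 1 lower, moderation without an intensity trend gave 1, and a fit of the 4 G4/G5 arrays alone gave 3. In G0 1 was lower and the median was -0.12. Rps29 read 11289.9 and 15746 in G0 CMP, 11366 and 10871 in G0 GMP, 16604 and 20558 in G4/G5 CMP and 11659 and 12058 in G4/G5 GMP (-0.64 ± 0.16, G0 -0.26), and Rpl13a read 9822 and 12742 in G0 CMP, 9490.3 and 9589.6 in G0 GMP, 14479 and 16814 in G4/G5 CMP and 10455 and 10345 in G4/G5 GMP (-0.58 ± 0.14, G0 -0.23). Both were higher in the G4/G5 CMP pools than in all other pools, and under quantile normalization their differences were 0.05 (Rps29) and 0.004 (Rpl13a). The lower members numbered 22 without CMP pool 1, 1 without CMP pool 2, and 0 without GMP pool 1 or GMP pool 2. Ribosomal protein genes have many near-identical copies in the genome, so their probe sets may share signal.

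Genes of defence and cell death were read beside all genes, of which 6.49% were lower and 4.47% higher. Of 25 interferon response genes tested (42 listed), 6 were lower (median -0.28, G0 -0.35 with 8 lower and 1 higher). Irf9, a subunit of the interferon-activated complex ISGF3, read 158 and 154 in the CMP pools and 66.7 and 83.9 in the GMP pools (-0.97 ± 0.17, G0 -0.67), and Rsad2, the antiviral enzyme viperin, read 105 and 88.2 in the CMP pools and 24.5 and 35.3 in the GMP pools (-1.42 ± 0.26, G0 -1.40). Tap1, the peptide transporter of antigen presentation, read 547 and 813 in the CMP pools and 325 and 347 in the GMP pools (-0.97 ± 0.20), against -0.35 in G0. Of 18 apoptosis regulators tested (29 listed), 5 were lower and 1 higher, but 0 and 1 with only the 4 G4/G5 arrays fitted. Bcl2, which protects cells from apoptosis, read 627 and 867 in the CMP pools and 313 and 442 in the GMP pools (-0.97 ± 0.20, G0 -0.47), and Bcl2l11, the killer protein BIM, read 183 and 249.7 in the CMP pools and 105 and 104 in the GMP pools (-0.97 ± 0.21, G0 -0.85). Genes of both effects were thus lower, with Xiap (-0.61 ± 0.13), Birc2 (-0.63 ± 0.14) and Casp6 (-0.98 ± 0.25), while Cycs rose. Leaving out CMP pool 1 and CMP pool 2 in turn, 5 and 2 interferon genes and 4 and 2 apoptosis regulators were lower, and without GMP pool 1 or GMP pool 2 no gene of these 2 lists passed.

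Genes of damage, telomeres and chromatin were called in both directions or not at all. Among all genes tested, 4.47% were higher and 6.49% lower in G4/G5 GMP, so 1 or 2 called members say little about such a list. Of 21 p53 target genes tested (31 listed), Gadd45b was higher (1.22 ± 0.27) and Trp53inp1 (-1.19 ± 0.30) and Sesn1 (-1.06 ± 0.18) were lower, with a median of -0.16 against -0.21 in G0. The p53 targets numbered 1 higher and 1 lower without CMP pool 1, and 0 and 2 without CMP pool 2. Of 31 checkpoint, recombination and Fanconi genes tested (42 listed), Tipin, a protein of the replication fork, was higher (0.79 ± 0.13) and Chek2, a checkpoint kinase, lower (-0.72 ± 0.16). Of 18 shelterin and telomerase genes tested (22 listed), none passed in G4/G5 by limma (2 unadjusted; median 0.09, and -0.06 without CMP pool 1). Of 31 Polycomb, DNA methylation and myelodysplasia genes tested (37 listed), Idh1 (1.01 ± 0.16) and Idh2 (0.51 ± 0.12), isocitrate dehydrogenases, were higher. Runx1, Phf6 (-0.66 ± 0.17), Tet1 (-0.58 ± 0.16) and Rnf2 (-0.51 ± 0.12) were lower. With CMP pool 1 left out, 4 checkpoint and repair genes and 5 of the Polycomb list were lower and 1 of each higher; without CMP pool 2, none was lower and 3 of each were higher; without GMP pool 1 or GMP pool 2, none passed. Fitted on the 4 arrays alone, the Polycomb list had 1 higher and 0 lower. Of 45 splicing genes tested (51 listed), Prpf31 (0.77 ± 0.19) and Eftud2 (0.57 ± 0.15) were higher, but without CMP pool 1 none was and 1 gene was lower. None of 17 cyclin-dependent kinase inhibitors and D-type cyclins tested (21 listed) passed by limma (6 unadjusted), and 2 were lower without CMP pool 1.

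Lists of other myeloid genes passed for single members. Among all genes, 4.47% were higher and 6.49% lower in G4/G5 GMP, and 11.0% and 10.1% in G0 GMP. Of 18 monocyte, macrophage and dendritic genes tested (29 listed), 1 was higher in G4/G5 GMP (median 0.17) and 5 in G0 (median 0.81). It was Ccr2, the chemokine receptor that brings monocytes out of the marrow, which read 104 and 126 in G0 CMP, 436 and 434 in G0 GMP, 355 and 200.5 in G4/G5 CMP and 475 and 637 in G4/G5 GMP (1.01 ± 0.26, G0 1.84). Without CMP pool 1, 4 of them were higher with a median of 0.42, and without CMP pool 2 none, with -0.06. The median was 0.49 without GMP pool 1 and -0.02 without GMP pool 2. None of the 6 genes of the phagocyte NADPH oxidase tested (7 listed) passed by limma (2 unadjusted; median 0.53, G0 1.01 with 2 higher), and without CMP pool 1, 4 were higher (median 0.98; 0.17 without CMP pool 2). Of 23 lysosomal genes tested (29 listed), Ctsz and Gusb, beta-glucuronidase, were higher (Gusb 0.82 ± 0.13; list median 0.23, G0 0.37 with 9 higher), and 6 were without CMP pool 1; the median was 0.02 without CMP pool 2. Of 16 heme and iron genes tested (23 listed), Alas1 and Tfrc were higher and Tfr2 (-0.78 ± 0.20) and Blvrb (-1.44 ± 0.31) lower (median -0.04, and 0.08 without CMP pool 1). Of 20 immediate early and heat shock genes tested (32 listed), 2 were lower, Ier3 (-1.49 ± 0.29) and Ier5 (-0.81 ± 0.19), and 1 was higher, Hspa4, of which both other probe sets had the opposite sign. Few genes of lymphoid or stromal cells reached the filter, 4 of 20 listed B lymphoid, 2 of 17 T and NK and 4 of 16 stromal and endothelial genes. Of these Dntt and Bgn, the matrix protein biglycan (-1.40 ± 0.38), were lower. Without G0 GMP pool 1, at most 2 genes passed in G0 in each list other than the erythroid, megakaryocyte, stem cell, primary granule and ER lists.

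**Figure D3:**
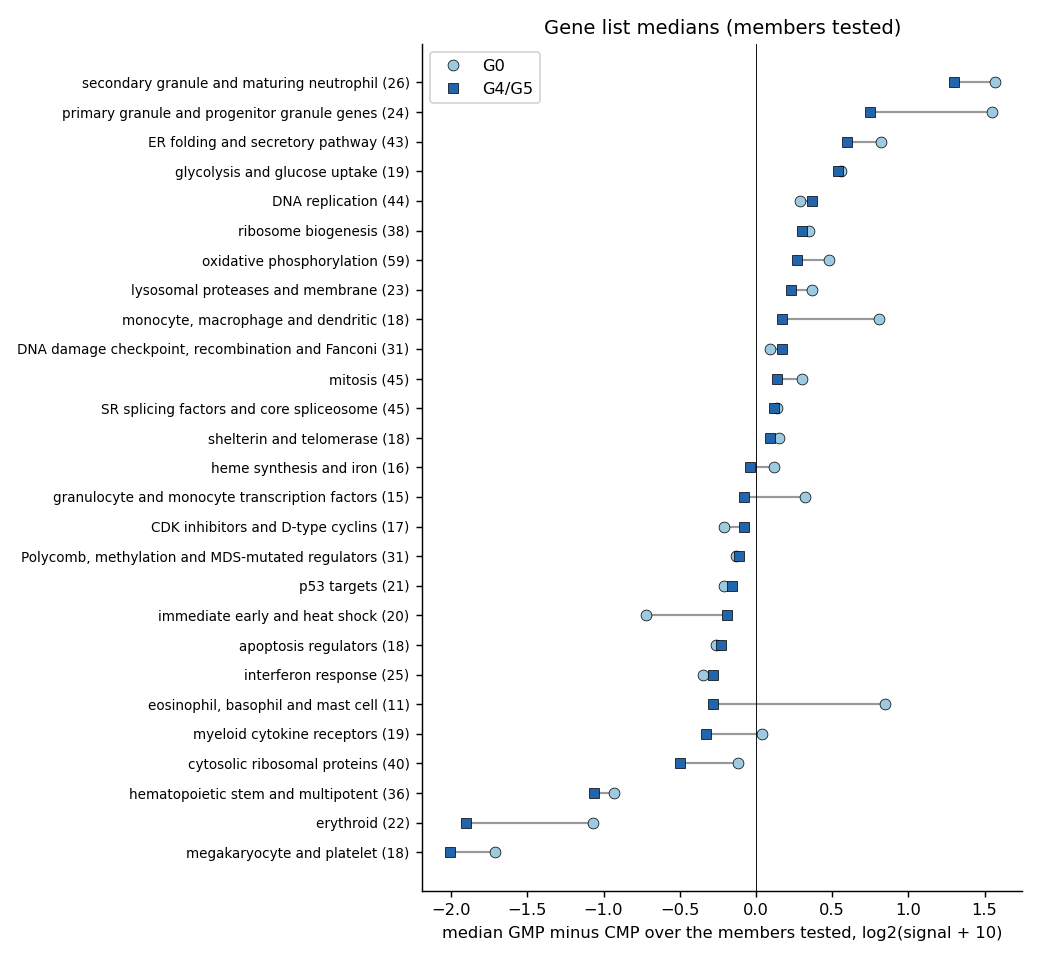
Median difference between GMP and CMP over the tested members of each gene list (number in brackets), on the log2(signal + 10) scale, in G0 (circles) and G4/G5 (squares). Only lists with 10 or more members tested are shown. The erythroid and megakaryocyte medians lie furthest below 0 in G4/G5, at -1.90 and -2.01, and the eosinophil, basophil and mast cell median lies at 0.85 in G0 and -0.28 in G4/G5.

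How much of the G0 distinction was kept was then counted. Called the same way in both genotypes were 719 genes, 300 higher and 419 lower in GMP, which is 40.0% of the 1798 genes called in G0 and 76.7% of the 937 called in G4/G5. None was called in opposite directions. Across all 8549 genes the differences of the genotypes, which share no array, correlated at 0.84 (Pearson) and 0.79 (Spearman), as a description, since genes are not independent replicates.

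For genes called in G0, the G4/G5 difference was a median of 64.4% of the G0 difference where GMP were higher (938 genes, quartiles 46.6% and 84.7%) and 79.6% where they were lower (860 genes, quartiles 55.6% and 102.5%). It was under 50% for 274 (29.2%) of the former, of which 18 had the opposite sign, and for 172 (20.0%) of the latter, of which 13 had the opposite sign. These genes were chosen on the G0 arrays, where their differences are large by that choice. Chosen on the G4/G5 arrays instead, the G0 difference was a median of 103.3% of the G4/G5 difference for the 382 genes higher in GMP and 89.5% for the 555 lower.

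Each G4/G5 array was placed between the mean of the G0 CMP pools (0%) and that of the G0 GMP pools (100%), gene by gene, over the genes chosen on those same G0 arrays. Over the 938 genes higher in G0 GMP, the median position was 37.8% for G4/G5 CMP pool 1 and 19.5% for pool 2, and 100.3% and 89.0% for the G4/G5 GMP pools. Over the 860 genes lower in G0 GMP, it was 11.0% and 6.3% for the CMP pools, and 94.2% and 83.6% for the GMP pools. After quantile normalization CMP pool 1 still stood at 33.2% against 16.5% for the 2 gene sets, but pool 2 stood at 12.1% against 13.6%. After median centring the values were 32.3% against 15.5% for pool 1 and 9.9% against 14.6% for pool 2, so the higher position over the first gene set held in pool 1 alone. Over that set the GMP pools stood at 97.7% and 87.3% after quantile normalization and at 97.2% and 86.1% after median centring. Over the same 938 genes, CMP pool 2 lay no further from 0% than GMP pool 2 from 100% after either scaling. Over the 860 lower genes CMP pool 2 lay further. There GMP pool 2 stood at 89.2% after quantile normalization and 86.3% after median centring.

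**Figure D4:**
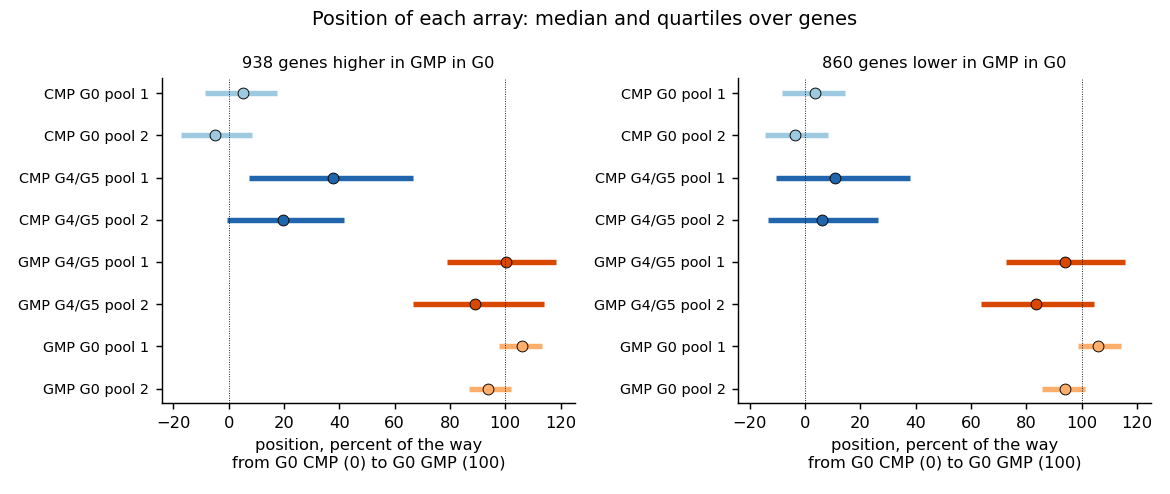
Position of each array between G0 CMP (0) and G0 GMP (100), in percent, as the median (point) and quartiles (bar) over the 938 genes higher and the 860 genes lower in G0 GMP. In the left panel the G4/G5 CMP pools lie at 37.8 and 19.5; in the right panel they lie at 11.0 and 6.3.

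Kept genes were ranked by the smaller of their differences in the genotypes, and the first were Mgam, Dmkn, Afap1, B4galt6, Ms4a3, Ncmap, Chst13 and Rgcc on the higher side. Dmkn, a secreted protein known from skin, read 34.0 and 21.9 in G0 CMP, 516 and 412 in G0 GMP, 166 and 27.6 in G4/G5 CMP and 617 and 500.2 in G4/G5 GMP. Rgcc, a regulator of the cell cycle, read 69.6 and 56.8 in G0 CMP, 759 and 601 in G0 GMP, 251 and 77.4 in G4/G5 CMP and 767 and 687 in G4/G5 GMP. In both genes G4/G5 CMP pool 1 lay between the other CMP pools and the GMP pools. On the lower side they were Dntt, F2r, Slc14a1, Aldh1a1, Mycn, Ctla2a, H2-Ob and Cavin2. Ctla2a, an inhibitor of cathepsin-like proteases, read 2523 and 2762 in G0 CMP, 383 and 422 in G0 GMP, 3067 and 2547 in G4/G5 CMP and 408 and 384 in G4/G5 GMP, the same step in each genotype (-2.79 ± 0.14 and -2.69). H2-Ob, a class II histocompatibility chain, read 303 and 394 in G0 CMP, 37.4 and 57.3 in G0 GMP, 313 and 317 in G4/G5 CMP and 32.4 and 47.7 in G4/G5 GMP (-2.72 ± 0.24 and -2.65). Dntt, the terminal transferase of lymphoid precursors, read 713 and 149 in G0 CMP, 11.0 and 28.9 in G0 GMP, 102 and 234 in G4/G5 CMP and 9.87 and 5.43 in G4/G5 GMP (-3.24 ± 0.67 and -3.57), with the CMP pools of each genotype far apart.

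The G0 rises with the largest loss in G4/G5 included eosinophil and monocyte genes. They were chosen on the difference between the genotypes, so their values describe them. Prg2, the eosinophil major basic protein, read 108 and 34.8 in G0 CMP, 1118 and 2125 in G0 GMP, 2951 and 230.1 in G4/G5 CMP and 1979 and 1635 in G4/G5 GMP. Its difference was 4.42 in G0 and 1.10 ± 0.98 in G4/G5 (interaction -3.31 ± 1.39, unadjusted p = 0.0422), where CMP pool 1 lay above both GMP pools; without that pool it was 2.91 (adjusted p = 0.0118). Epx, eosinophil peroxidase, read 19.9 and 4.49 in G0 CMP, 200.4 and 318 in G0 GMP, 214 and 35.4 in G4/G5 CMP and 228 and 211 in G4/G5 GMP (3.66 in G0, 1.18 ± 0.66 in G4/G5, 2.33 without CMP pool 1). Cd14, a receptor for bacterial lipopolysaccharide, read 12.7 and 6.06 in G0 CMP, 85.6 and 105 in G0 GMP, 40.7 and 98.6 in G4/G5 CMP and 36.1 and 116 in G4/G5 GMP (2.46 in G0, 0.04 ± 0.51 in G4/G5), and here CMP pool 2 was the higher one. Hp, haptoglobin, read 46.5 and 42.7 in G0 CMP, 665 and 790.0 in G0 GMP, 1230.5 and 163 in G4/G5 CMP and 1515 and 1474 in G4/G5 GMP, and its difference of 1.70 ± 0.70 was 3.12 without CMP pool 1 (adjusted p = 8.24e-05). The others were Prg3, Igsf6, Ly86 and Ccl6.

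The 11 eosinophil, basophil and mast cell genes tested (25 listed) had a lower GMP minus CMP difference in G4/G5 than in G0 in 11 of 11. Their median interaction was -1.14, where all genes had -0.04. The list was written with earlier results of these data known, and the share of all genes with a lower difference is not given. In G4/G5, 1 was higher and 2 lower (median -0.28), and in G0 4 and 1 (median 0.85). The shares of all genes were 4.47% and 6.49% in G4/G5, and 11.0% and 10.1% in G0. Mcpt8, a protease of basophils, read 218 and 244 in G0 CMP, 799.6 and 908 in G0 GMP, 478 and 318 in G4/G5 CMP and 649.6 and 699 in G4/G5 GMP (1.84 in G0, 0.78 ± 0.19 in G4/G5, interaction -1.07 ± 0.27, unadjusted p = 0.00403). Cpa3, a carboxypeptidase of mast cells and basophils and their progenitors, read 939 and 1354 in G0 CMP, 1202 and 1432 in G0 GMP, 2242 and 1387 in G4/G5 CMP and 812 and 1119 in G4/G5 GMP (0.22 in G0, -0.88 ± 0.27 in G4/G5, interaction -1.10 ± 0.38, unadjusted p = 0.0188). For both genes the G4/G5 GMP pools read below the G0 GMP pools and the G4/G5 CMP pools above the G0 CMP pools. The list's median without CMP pool 1 was 0.37 with 4 higher and 1 lower, and without CMP pool 2 it was -0.73 with 0 higher and 2 lower.

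The G0 falls with the largest loss in G4/G5 were of other kinds of gene. Egr1, an immediate early transcription factor, read 254 and 1919.7 in G0 CMP, 18.7 and 8.06 in G0 GMP, 58.4 and 83.6 in G4/G5 CMP and 1.98 and 4.55 in G4/G5 GMP (-4.97 in G0, -2.60 ± 0.76 in G4/G5), with the G0 CMP pools themselves far apart. Malat1, a nuclear long non-coding RNA, read 4320.2 and 5296 in G0 CMP, 2627 and 2788 in G0 GMP, 1762 and 2256 in G4/G5 CMP and 2271 and 2621 in G4/G5 GMP (-0.82 in G0, 0.29 ± 0.16 in G4/G5, interaction 1.11 ± 0.22, unadjusted p = 0.000945), but 4 of its 5 other probe sets past the filter had the opposite sign in G4/G5. The zinc finger genes Zfp788 (-1.37 and -0.01 ± 0.23) and Zfp799 (-0.98 and 0.17 ± 0.21) had differences near 0 in G4/G5. Xrcc5, the KU80 subunit that binds broken DNA ends and telomeres, read 170.0 and 101 in G0 CMP, 45.0 and 34.2 in G0 GMP, 99.6 and 66.4 in G4/G5 CMP and 54.5 and 50.9 in G4/G5 GMP (-1.52 in G0, -0.55 ± 0.29 in G4/G5, interaction 0.97 ± 0.41, unadjusted p = 0.0431). Its G4/G5 signals lay between those of G0 CMP and G0 GMP. Elovl7, Zfp982 and AU041133 were the remaining genes.

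Tested directly, the difference between the genotypes passed for no gene: 0 of 8549 (0.0%) had an interaction with an adjusted p under 0.05 by limma, and the smallest adjusted p was 0.991. Unadjusted, 337 genes (3.94%) had a p under 0.05, 121 above 0 and 216 below. That is fewer in all than the 427 that chance gives among 8549 genes, but the count depended on the fit. With pool number as a block within cell type, the pairing in the series text, it was 579, and again none passed after adjustment. No gene is therefore shown to differ between the genotypes in its lineage difference. The median standard error was 0.267, and interactions as large as the -1.61 of Ly86 did not pass. The test therefore does not show that large interactions are absent. Without G4/G5 CMP pool 2, 11 genes passed below 0, without G4/G5 CMP pool 1, 2 above 0, and without G0 CMP pool 1, 2 above and 1 below. The smallest unadjusted p was that of Ly86, also called MD-1, a partner of a lipopolysaccharide receptor homologue on myeloid and B cells. Ly86 read 201 and 285 in G0 CMP, 455 and 552 in G0 GMP, 826 and 732 in G4/G5 CMP and 484 and 559 in G4/G5 GMP (1.03 ± 0.19 in G0, -0.57 ± 0.19 in G4/G5, interaction -1.61 ± 0.27, unadjusted p = 0.00027). Both G4/G5 CMP pools lay above all the others.

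Further genes with small interaction p went below 0 as well. Ctsz, cathepsin Z of lysosomes, read 599 and 534 in G0 CMP, 2592 and 2538 in G0 GMP, 1285 and 1065 in G4/G5 CMP and 2731 and 2280.5 in G4/G5 GMP (2.16 in G0 and 1.09 ± 0.14 in G4/G5, interaction -1.07 ± 0.20, unadjusted p = 0.00062), and it passed in both genotypes. Ube2c, a ubiquitin enzyme of mitotic exit, read 714 and 790.4 in G0 CMP, 1198 and 1188 in G0 GMP, 1089 and 1003 in G4/G5 CMP and 994 and 925 in G4/G5 GMP (0.66 and -0.12 ± 0.12, interaction -0.78 ± 0.17, unadjusted p = 0.00148). Il4ra, the interleukin 4 receptor, read 50 and 47.8 in G0 CMP, 95.8 and 87.3 in G0 GMP, 91.1 and 78.6 in G4/G5 CMP and 55.2 and 63.0 in G4/G5 GMP (0.78 and -0.46 ± 0.19, interaction -1.24 ± 0.27, unadjusted p = 0.00162). Erp29, an ER folding protein, read 343 and 417 in G0 CMP, 873 and 903 in G0 GMP, 561 and 627 in G4/G5 CMP and 792 and 755 in G4/G5 GMP (1.21 and 0.38 ± 0.14, interaction -0.83 ± 0.20, unadjusted p = 0.00248). Lmo4, a LIM-domain cofactor, had 0.89 and -0.23 ± 0.18 (interaction -1.11 ± 0.26, unadjusted p = 0.00234). In each of these 5 genes both G4/G5 CMP pools were brighter than both G0 CMP pools. Above 0 stood Nedd4, a ubiquitin ligase, which read 1369 and 1443 in G0 CMP, 1171 and 1022 in G0 GMP, 655 and 504 in G4/G5 CMP and 1143 and 865 in G4/G5 GMP (-0.36 and 0.78 ± 0.18, interaction 1.14 ± 0.25, unadjusted p = 0.00172), with 1 of its 2 other probe sets of opposite sign. Slk, a kinase of the cytoskeleton, read 607 and 555 in G0 CMP, 511 and 527 in G0 GMP, 461 and 383 in G4/G5 CMP and 619.7 and 757 in G4/G5 GMP (-0.16 and 0.69 ± 0.15, interaction 0.85 ± 0.21, unadjusted p = 0.00374). Pisd-ps3, a pseudogene with 4 of 4 other probe sets of opposite sign, had -0.70 and 0.03 ± 0.12 (interaction 0.73 ± 0.17, unadjusted p = 0.00267).

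Genes of maturing neutrophils set the CMP pools apart. Of 35 listed, 26 were tested and none passed in G4/G5 by limma (3 unadjusted), with a median of 1.30 (G0 1.57, 4 higher). S100a8, a subunit of calprotectin, read 16783 and 44.3 in the CMP pools and 9762 and 10308 in the GMP pools, and Ngp, a secondary granule protein, read 8262 and 20.5 in the CMP pools and 4257 and 4743 in the GMP pools. Camp, the cathelicidin peptide, read 5902 and 1.28 in the CMP pools and 2229 and 3107 in the GMP pools, and Lcn2, lipocalin 2, read 4147 and 11.8 in the CMP pools and 2499 and 2602 in the GMP pools. In these 4 genes CMP pool 1 lay above both GMP pools and CMP pool 2 lay below them. Without CMP pool 1, 21 of the 26 were higher in GMP with a median of 3.70. Without CMP pool 2, 1 was higher and the median was -0.72. In G0 CMP the same genes were low in both pools, with S100a8 at 179 and 103 and Ngp at 12.4 and 29.4, and in G0 GMP S100a8 read 898 and 1753. Whether the neutrophil signal in CMP pool 1 came from other cells in the pool was not tested.

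**Figure D5:**
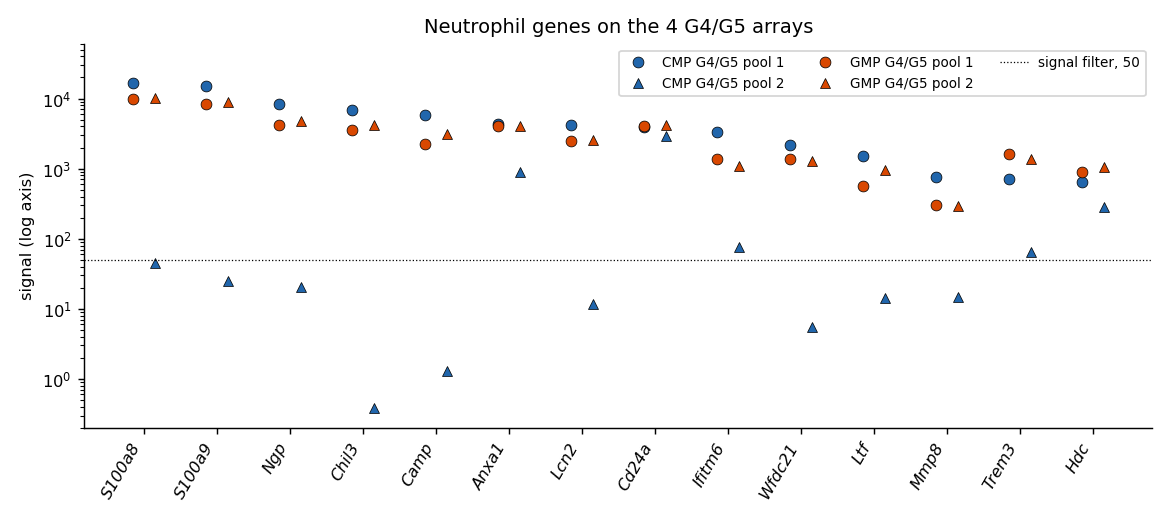
Signals of the 14 maturing neutrophil genes with the highest signal in CMP pool 1, on the 4 G4/G5 arrays (log axis), with circles for pool 1 and triangles for pool 2, and the signal filter of 50 as a dotted line. CMP pool 1 lies above both GMP pools for 11 of the 14 genes, and CMP pool 2 lies below the filter for 9.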

How the data were processed

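Bone marrow progenitors were profiled on Affymetrix 3' expression arrays of the mouse genome in 4 groups of 2 pools. The deposited values are probe set intensities (signals) made by the authors with MAS5, version 5.0, per the submitters' processing notes and the series' design text, with each array scaled to a target of 100. Array medians ran from 14.26 to 18.48, and the number of arrays limits the precision. Probe sets were named from the platform's annotation, and those with several symbols or none were left out.

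Signals were taken as log2(signal + 10). limma 3.58.1 (R 4.3.3; lmFit, eBayes with an intensity trend) fitted 1 mean per group over all 8 arrays, with Benjamini-Hochberg adjustment over 8549 genes and a threshold of 0.05. The interaction is the G4/G5 difference minus the G0 difference. No array was dropped or imputed. Tables and figures used Python 3.11.15, pandas 2.3.3 and matplotlib 3.10.9. On simulated signals for the G4/G5 comparison of 8549 genes, 66 of 100 genes changed by 1 log2 unit and 98 of 100 changed by 2 were called, with 12 false calls. The simulated noise was independent between genes and had the same spread in all 4 groups. In the data the CMP pools varied more than the GMP pools, so these rates do not carry over to the data.

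The comparison, the 32 gene lists and the genes named were chosen with earlier results of these data known. The naming rule took the 12 largest rises and falls among called genes whose arrays did not overlap, up to 4 members of highest signal per list, the 6 smallest interaction p-values each way, the 8 kept and 8 blurred genes each way with the largest values, the 6 genes that differed most between the G4/G5 CMP pools, and the genes of the gate. Other genes named were chosen with their values seen, as a list's called members or for their known role. The series text pairs same-numbered G0 and G4/G5 pools within a cell type. Deviations of same-numbered pools correlated across genes at 0.23 between G4/G5 CMP and G0 CMP, 0.16 between the GMP groups, 0.03 between G4/G5 CMP and G4/G5 GMP, 0.20 between G0 CMP and G0 GMP, 0.08 between G4/G5 GMP and G0 CMP and -0.24 between G4/G5 CMP and G0 GMP. Alternatives covered the pseudocount, signal filter, normalization, probe sets, moderation, arrays fitted, pool number as a block and each array left out.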

Additional observations from a re-analysis of the deposited data

Results flagged for a closer look

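For 8 of the 165 genes named, both GMP pools lay on one side of both CMP pools in G4/G5 and on the other side in G0. With 2 pools per group this pattern can arise by chance, and its share over all genes was not counted. All but Hoxa9 were named for a small interaction p, a choice that favours the pattern. The interaction of each had an adjusted p of 0.991 by limma, so none is shown to differ between the genotypes. Ly86 had an interaction of -1.61 (log2 scale), Il4ra of -1.24 and Ube2c of -0.78, all higher in GMP than in CMP in G0 and lower in G4/G5. Malat1 had an interaction of 1.11, Nedd4 of 1.14, Zfp799 of 1.15 and Slk of 0.85, all lower in G0 GMP and higher in G4/G5 GMP. Hoxa9, a homeobox gene of progenitors, had 0.63, with signals of 869 and 745 in G0 CMP, 633 and 715 in G0 GMP, 692 and 682 in G4/G5 CMP and 832 and 963 in G4/G5 GMP. Other probe sets of Malat1, Nedd4 and Hoxa9 had G4/G5 differences of opposite sign.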

How the results depend on the processing

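Group sizes of 2 pools set the limits here: a fit that leaves out 1 array assumes that the lone array varies like the others. Over the 8 such fits, genes higher and lower in G4/G5 GMP numbered 9 to 647 and 56 to 741, those in G0 27 to 1297 and 41 to 1164, and those called alike in both genotypes 62 to 1011; interactions numbered 0 to 2 above 0 and 0 to 11 below. Without a signal filter 184 genes were higher and 322 lower in G4/G5, 610 were higher in G0 and 400 were called alike. With only the 4 arrays of a comparison fitted the G4/G5 counts were 157 and 275, and 339 genes were called alike. The remaining counts lay within 1.5 times the reported ones under every other setting.

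With pool number as a replicate block shared by all groups, 521 genes were higher and 689 lower in G4/G5, and with the block within genotype 458 and 596. With the block within cell type, as the series text pairs the pools, the interaction again called 0 genes. At an unadjusted p under 0.05 there were 579, against 337 without the block and 427 expected by chance. The GMP against CMP difference itself cannot be estimated under this block.

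Of the 120 named genes called in G4/G5, 64 kept direction and call under all 12 settings with every array, where tested, and 27 under each of the 8 fits without 1 array. Only Rps29 (0.05) and Rpl13a (0.004), both under quantile normalization, changed sign. Genes not called changed sign as follows. Under quantile normalization Elovl7 was 0.23, Pisd-ps3 -0.06, Spi1 0.01 and Zfp788 0.14; after median centring Elovl7 was 0.04, Fli1 0.02 and Zfp788 0.04. Without the probe sets marked as cross-hybridising, Malat1 was -0.12 and Pisd-ps3 -0.43. Over the fits without 1 array, the differences ran as follows: AU041133 from -0.07 to 0.27, Camp from -1.16 to 7.87, Ccl6 from -0.31 to 1.88, Cd14 from -0.69 to 0.76, Cebpa from -0.30 to 0.66, Csf1r from -0.17 to 0.47, Csf2rb from -0.09 to 0.68, Csf3r from -0.06 to 0.56, Elovl7 from -0.36 to 0.33, Fli1 from -0.12 to 0.06, Lcn2 from -0.70 to 6.87, Mpo from -0.16 to 0.18, Ngp from -0.88 to 7.21, Pisd-ps3 from -0.01 to 0.07, Prg2 from -0.71 to 2.91, Prg3 from -0.40 to 2.30, S100a8 from -0.74 to 7.53, Spi1 from -0.48 to 0.31, Zfp788 from -0.25 to 0.23 and Zfp982 from -0.69 to 0.04. The cause was not tested.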
